A study of Homo sapiens with 4 samples.

Results

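Broad CHD5 peaks are the rows of the CHD5 peak list on chromosomes 1 to 22 that span 5000 bp or more, and there are 878 of them. They make up 2.72% of the 32250 autosomal CHD5 peaks and 2.70% of the 32543 peaks of the whole list. The members were selected on their measured width, so their number, width and score are given as a description and not as a tested result. Another 3 peaks of this width lie on chromosome X or Y and are not members.

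The data come from chromatin immunoprecipitation followed by sequencing in SH-SY5Y. This established neuroblastoma line of human origin was kept for 8 days in 10 uM retinoic acid, which drives it towards a neuron-like state. All 4 libraries share this treatment: a streptavidin pull-down from cells expressing FBio-CHD5, the form of CHD5 captured by the beads, one from control cells expressing Fbio-Ctrl, an H3K27me3 precipitation and input DNA. The last pair came from the FBio-CHD5 cells. The CHD5 pull-down and the H3K27me3 precipitation gave the peak lists used here, and the control and input libraries were not analysed here. With 1 library per group from a single established line, no value has a replicate error, and the lists hold no read counts, so sequencing depth is unknown. SH-SY5Y is known to carry gains of chromosome 7, of the long arms of chromosomes 1 and 17 and of the short arm of chromosome 2. DNA copy number was not measured in the files used here.

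CHD5 is a chromodomain helicase that moves nucleosomes, belongs to a family of subunits of the NuRD remodelling complex and is found mainly in neurons and testis. Its gene lies in a part of chromosome 1 that is often lost in neuroblastoma, and CHD5 is regarded as a tumour suppressor there. H3K27me3 is the histone mark written by Polycomb repressive complex 2 and is found over silenced developmental genes.

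The median width of the broad peaks was 6040.5 bp, with quartiles of 5440 and 7345 bp, and the widest spanned 18470 bp. Widths fell between 5 and 6 kb for 432 members, between 6 and 8 kb for 298, between 8 and 10 kb for 89, and at 10 kb or above for 59. Members covered 5.87 Mb, which was 9.15% of the 64.2 Mb under autosomal CHD5 peaks. The limit cuts through a continuous distribution. The narrowest 5 members spanned 5001 to 5009 bp and had scores from 177 to 1394, and the widest 5 autosomal peaks below the limit spanned at least 4995 bp and had scores from 334 to 858. The score is the authors' value per peak on a scale that is not stated, and it is used here only to rank peaks within the list.

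Broad peaks were concentrated on a few chromosomes. Chromosome 7 held 227, chromosome 1 held 178, chromosome 2 held 124 and chromosome 17 held 82. No other autosome held more than 32, the number on chromosome 5. At the low end chromosome 21 held 5, chromosome 18 held 3 and chromosome 22 held 1. As a share of its own CHD5 peaks, chromosome 7 had 10.1% broad, chromosome 1 had 5.08%, chromosome 17 had 5.07% and chromosome 2 had 4.08%, against 0.228% on chromosome 22 and 0.437% on chromosome 18.

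Nearly all of that excess lay in 4 stretches, named with these data in view, where the median CHD5 peak was wider than elsewhere. These are the whole of chromosome 7, chromosome 1 above 120 Mb, chromosome 2 below 49 Mb and chromosome 17 above 45 Mb, called the wide segments from here on. They held 546 of the 878 members, or 62.2% (Wilson 95% interval 58.9% to 65.3%), on 13.0% of the autosomal length spanned by the lists. Inside them 9.20% of CHD5 peaks were broad (8.49% to 9.96%), and elsewhere 1.26% (1.13% to 1.40%), a ratio of 7.29. Per Mb this came to 1.46 broad peaks inside and 0.133 elsewhere. Intervals of shares are Wilson intervals, treat peaks as independent and cover counting error only. CHD5 peaks lie in clusters, so the intervals can be too narrow.

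The split divided chromosomes 1, 2 and 17 internally. On chromosome 1 the segment had 158 broad peaks among 1775, or 8.90%, and the remainder had 20 among 1732, or 1.15%. On chromosome 2 the figures were 91 of 955, or 9.53%, and 33 of 2082, or 1.59%. Chromosome 17 had 70 of 949, or 7.38%, against 12 of 670, or 1.79%. With the segments set aside, the 21 remaining chromosomes or parts of chromosomes ranged from 0.228% to 1.92%, with a median of 1.36%, and the highest share was on chromosome 11. By this share, chromosomes 1, 2 and 17 outside their segments thus lay within the range of the other autosomes. Per Mb, chromosome 17 outside its segment had 0.267 broad peaks, above the highest of the other autosomes, 0.1771 on chromosome 10.

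**Figure D1:**
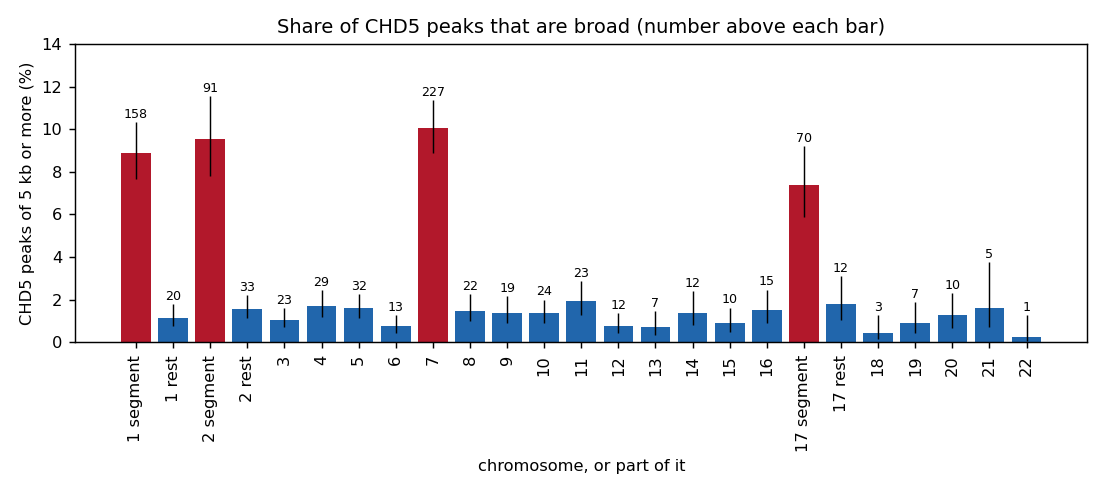
Percentage of the CHD5 peaks of each autosome that span 5 kb or more, with chromosomes 1, 2 and 17 divided into the wide segment and the rest. Bars in red are the wide segments (all of chromosome 7), blue bars all other sequence, error bars are Wilson 95% intervals and the number above a bar counts its broad peaks. The red bars reach 7.38% to 10.1%, and no blue bar exceeds 1.92%.

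The whole width distribution was displaced in these segments, and not only its upper end. The median CHD5 peak spanned 2468 bp inside them and 1522 bp elsewhere, a ratio of 1.62. The ratio was 1.67 at the 90th percentile, with 4868 and 2909 bp, and 1.76 at the 99th, with 9302 and 5285 bp. With the segments pooled, peaks were also 1.51 times as dense, at 15.9 per Mb against 10.5, but this was uneven. The segments of chromosomes 2 and 17 had 19.5 and 26.2 per Mb, against 10.7 and 14.9 on the rest of each. The segment of chromosome 1 had 13.7, against 14.4 on its rest, and chromosome 7 had 14.2. The median peak score differed less, at 128 inside the segments against 115 elsewhere. By segment the median width lay between 2334 and 2536 bp, and over the 21 other parts it lay between 1337 and 1593 bp, so the ranges did not overlap. To make up the share found elsewhere, the width limit inside the segments would have to be 8567 bp in place of 5000 bp. Conversely, a limit of 2985 bp elsewhere would return the share found inside.

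H3K27me3 rows, which come from another library and not from a streptavidin pull-down, were wider in the same places. Their median width was 344 bp inside the segments and 229 bp elsewhere. By segment the H3K27me3 median ran from 308 to 351 bp, and over the other parts from 211 to 240 bp, again without overlap. The segments were named with these data in view, so these widths describe them and are not tested.

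Widths changed within a few Mb of the edges, which were themselves placed with these data in view. On chromosome 2 the 5 Mb below the edge at 49 Mb held 145 CHD5 peaks with a median of 2462 bp, 21 of them broad. In the 5 Mb above it 42 peaks had a median of 1608.5 bp and 0 were broad. On chromosome 17 the 5 Mb below 45 Mb held 1 broad peak among 116, with a median width of 1383 bp, and the 5 Mb above held 14 among 164, with a median of 2342 bp. The edge on chromosome 1 falls next to a stretch with few peaks. Between 120 and 130 Mb there were 13 peaks with a median of 1506 bp, close to the lower part of the chromosome, and the next peaks, between 140 and 150 Mb, numbered 55 and had a median of 3277 bp.

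**Figure D2:**
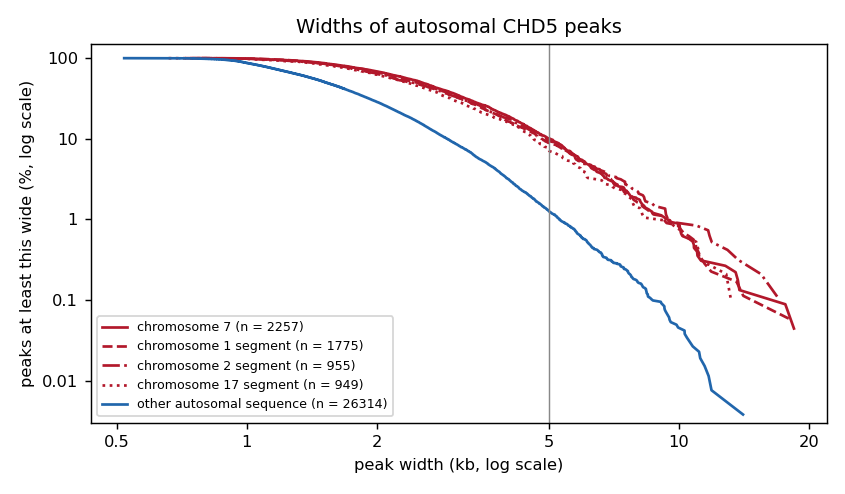
Percentage of autosomal CHD5 peaks that are at least as wide as the value on the x axis (kb), with both axes on a log scale and 1 line for each wide segment and for all other autosomal sequence. The vertical line marks the limit of 5 kb. The 4 red lines run close together and to the right of the blue line over the whole range from about the 1-kb mark, and they cross the limit between 7.38% and 10.1%, where the blue line crosses it at 1.26%.

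Chromosome 7 was not uniform. From 130 Mb to its end 89 of 445 CHD5 peaks were broad (16.55% to 23.97%), and below 130 Mb 138 of 1812 were, or 7.62% (6.48% to 8.93%). This boundary was chosen after counts in 10-Mb bins had been seen. The densest bin, 130 to 140 Mb, had 50 broad peaks among 201, or 24.9%, and a median width over all its peaks of 3301 bp, against 2429.5 bp below 130 Mb. The bin from 10 to 20 Mb came next among those below 130 Mb, with 21 broad peaks among 118, or 17.8%. H3K27me3 rows had a median width of 467 bp from 130 Mb on and 332 bp below. In the bin from 130 to 140 Mb only 28 H3K27me3 rows were listed, with a median of 266 bp. Broad peaks of the far part also scored lower, with a median of 254 against 486 below 130 Mb.

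At the level of 1-Mb windows, 444 windows held at least 1 broad peak and 273 of them held exactly 1. The largest count was at chr7:133000001-134000000, where 13 of 24 CHD5 peaks were broad and the median width of all peaks was 5138 bp. The adjoining window at chr7:132000001-133000000 had 10 broad peaks among 35. Counts of 10 were also found at chr7:154000001-155000000, among 30 peaks, and at chr1:156000001-157000000, among 56. The window at chr17:55000001-56000000 had 9 among 59. Of 42 windows with 5 or more broad peaks, 39 were in the wide segments. The fullest of the other 3, at chr10:80000001-81000000, had 6 broad peaks among 82, and its broad peaks had a median score of 1104, where those of the fullest window on chromosome 7 had 170.

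The widest single peak lay at chr7:18728034-18746503 (hg19, as are all positions here), with a score of 325. No other CHD5 peak was found within 10 kb of it, the next being 18.4 kb away, and the nearest H3K27me3 row was 360 kb away. The second widest, 18258 bp at chr1:204297508-204315765, had a score of 195 and sat in a tight row, with 3 CHD5 peaks within 10 kb, 2 of them broad, and the nearest 150 bp away. The third, 17639 bp at chr7:154525530-154543168, lay 42.6 kb beyond another of the widest 15, at chr7:154469261-154482954. On chromosome 2 a peak of 17008 bp lay at chr2:46554839-46571846 and one of 15499 bp at chr2:12305915-12321413. These 5 differed in score, from 140 for the last to 613 for the peak of 17008 bp.

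Of the 15 widest peaks, 14 were in the wide segments. They included a peak of 14100 bp at chr1:179746531-179760630 and a pair on chromosome 17, at chr17:55611302-55624483 and chr17:55738195-55751061. None of the 15 overlapped H3K27me3, and the nearest row to any of them was 26.3 kb away, from the peak of 17008 bp on chromosome 2. In 6 of them no other CHD5 peak lay within 10 kb, and another 6 had a neighbour closer than 200 bp. The widest peaks were thus of both kinds, single long rows and long rows that a short gap parts from the next.

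The exception among the 15 was the peak at chr19:31171442-31185518, which spanned 14077 bp, scored 1839 and lay 1025 kb from the nearest H3K27me3 row. Outside the segments it was followed by a peak of 11901 bp at chr2:197952641-197964541, with a score of 1559, and one of 11720 bp at chr17:2074591-2086310, with a score of 82.6. A peak of 11471 bp at chr4:174923764-174935234 scored 1131, and one of 11206 bp at chr9:87872770-87883975 scored 1384. The peak of 11138 bp at chr1:16987225-16998362 had a score of 52.0, close to the smallest score in the list, which is 50. Outside the segments 11 peaks reached 10 kb, against 48 inside.

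Broad peaks in the wide segments scored lower than those elsewhere. The median score of all members was 600, with quartiles of 360 and 925, where the median autosomal peak scored 117.5. Members in the wide segments had a median of 482 (quartiles 276 and 705), and those elsewhere 862 (594 and 1134). The gap held at matched width. Peaks of 5 to 6 kb had a median score of 411 inside and 809 elsewhere, those of 6 to 8 kb 560 and 988, and those of 8 kb or more 527 and 956. It was present below the limit too, with 312 and 577 at 4 to 5 kb. Over all autosomal peaks width and score rose together, with a Spearman rho across peaks of 0.749. Among the members, whose range of widths the limit cuts short, rho was 0.118, or 0.180 inside the segments and 0.197 elsewhere. Peaks of 1 library share its depth, and the score and the width come from the same signal.

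The highest score in the list, 3100, was shared by 10 peaks, of which 5 were broad. They lay at chr2:1526212-1539169, chr2:29465388-29470592 and chr2:242947157-242954475, at chr10:488252-496491 and at chr19:5230649-5235843. The first of these was also among the widest, at 12958 bp. Among the other members the highest scores were 2753 at chr5:124743450-124751439 and 2448 at chr12:111611801-111621076. Of the 10 members with the highest scores, 6 lay outside the wide segments and 0 overlapped H3K27me3.

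At the other end 46 members scored below the median autosomal peak, and 41 of them were in the wide segments. Chromosome 7 held 28, of which 19 lay from 130 Mb on, where they were 21.3% of the broad peaks, against 6.52% below 130 Mb. The lowest score was 51.7, for a peak of 6948 bp at chr7:133655190-133662137. Its neighbour at chr7:133667329-133673160 scored 53.6 over 5832 bp. On the same arm peaks at chr7:138145026-138152064 and chr7:140709954-140716218 scored 52.2 and 52.9. These are long rows near the smallest listed score, and raising the score limit to the median of the list leaves 832 members.

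**Figure D3:**
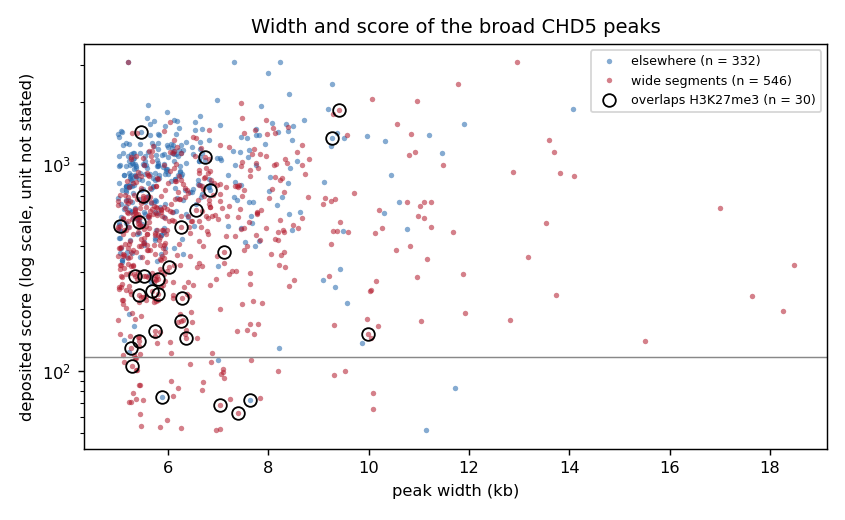
Deposited score (log scale, unit not stated) against width (kb) of each of the 878 broad CHD5 peaks, in red for the wide segments and in blue elsewhere, with a black ring around the 30 that overlap H3K27me3. The grey line is the median score of all autosomal CHD5 peaks, 117.5. Blue points sit higher than red ones, with medians of 862 and 482, and most points under the line are red.

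Broad peaks often had other CHD5 peaks close by. At a gap of up to 10 kb between edges, 574 of 878 had at least 1 neighbour, or 65.4% (62.2% to 68.5%), against 48.3% of all autosomal CHD5 peaks. Neighbours lay on both sides for 224 members, or 25.5%, where 11.3% of all autosomal peaks had them on both sides. A single neighbour was found for 259 members, 2 for 192 and 3 or more for 123. The median gap to the next CHD5 peak was 4.76 kb for broad and 11.1 kb for narrower peaks. The remaining 304 members stood alone at this distance, the most remote at chr2:91843921-91849805, with the next peak 2916 kb away.

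Broad peaks had the larger share with a neighbour in both settings. Outside the wide segments 70.5% of broad peaks had a neighbour (65.4% to 75.1%), against 47.7% of all peaks there. Inside them the share was 62.3% (58.1% to 66.2%), against 50.7%. By width class outside the segments it was 43.9% under 1 kb, 45.2% at 1 to 2 kb, 50.7% at 2 to 3 kb, 61.0% at 3 to 4 kb and 63.4% at 4 to 5 kb. It went on to 68.1% at 5 to 6 kb, 72.4% at 6 to 8 kb and 75.6% at 8 kb or more, so the members there continued a gradient that began below the limit. Inside the segments the share was level from 1 to 4 kb, between 48.9% and 49.4%, and then went from 54.6% at 4 to 5 kb to 75.7% at 8 kb or more. Of the 4 segments, chromosome 17 had the highest share, 51 of 70, and chromosome 7 the lowest, 124 of 227. Narrower peaks had the same extremes, with 54.5% on chromosome 17 and 46.0% on chromosome 7, so this ranking was not particular to the members.

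Many of the gaps were very short. For 155 members, or 17.7%, the next CHD5 peak began within 500 bp, against 13.0% of autosomal peaks, and for 297, or 33.8%, within 2 kb, against 24.2%. The smallest gap of a member was 2 bp. Joining peaks up to 1000 bp apart before the limit was applied gave 1566 broad stretches in place of 878, of which 46.6% lay in the wide segments.

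Broad peaks also had broad neighbours more often than CHD5 peaks at large, although most of their neighbours were narrower. A broad neighbour within 10 kb was found for 154 members, or 17.5%, against 3.03% of all autosomal CHD5 peaks. Of the 154, 123 were in the segments and 31 elsewhere, which are shares of the members there of 22.5% and 9.34%. The 3.03% pools both settings, although 9.20% of CHD5 peaks were broad inside the segments and 1.26% elsewhere. The share of all peaks with a broad neighbour was not computed by setting, so the size of the excess within each is not known. Narrower neighbours had a median width of 2639 bp in the segments, where all narrower peaks had 2315 bp, and of 1789 bp elsewhere, against 1512 bp. Joined across 10 kb, the 154 members formed 67 groups, of which 51 were pairs and 53 lay in the wide segments.

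The largest group, 5 broad peaks among 9 CHD5 peaks, ran over 49.1 kb at chr17:46055474-46104608. Broad peaks made up 37.9 kb of it, and the nearest H3K27me3 row was 95.7 kb away. Outside the segments the largest had 4 broad peaks among 8, over 45.4 kb at chr4:175035131-175080523, at 221 kb from H3K27me3. The group at chr1:214162647-214195631 also held 4, among 5 peaks. Of the 13 groups of 3, the longest 2 were at chr1:156643164-156683345 and at chr2:47280743-47319610, and 1 lay outside the segments, at chr16:85408107-85446527. Counted by peaks of any width, 3 members had the most neighbours, 6 each: chr2:220370358-220380317, chr4:175061298-175066931 and chr5:168311456-168317736.

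**Figure D4:**
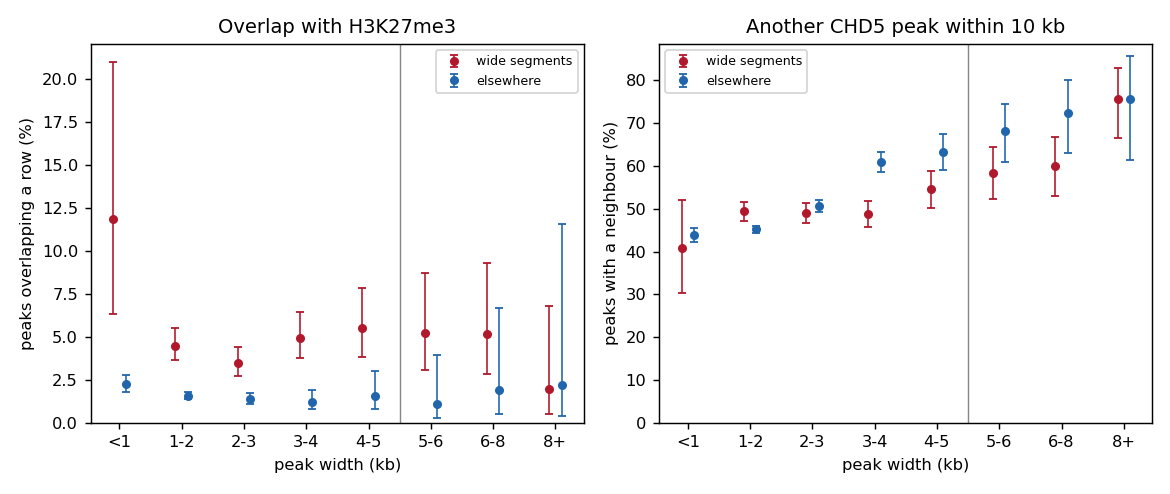
Percentage of autosomal CHD5 peaks that overlap an H3K27me3 row by 1 bp or more (left) and that have another CHD5 peak within 10 kb (right), by peak width (kb), in the wide segments (red) and elsewhere (blue), with Wilson 95% intervals. The vertical line marks 5 kb. On the left the blue points stay between 1.10% and 2.24% in every class, and on the right both series reach about 76% in the widest class (75.7% and 75.6%).

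Few broad peaks touched H3K27me3. An overlap of at least 1 bp was found for 30 of 878, or 3.42% (2.40% to 4.84%), against 2.12% of all autosomal CHD5 peaks. Within each setting the members' share was close to that of all peaks, with intervals too wide to show that an excess was absent. Inside the segments 25 of 546 overlapped, or 4.58% (3.12% to 6.67%), against 4.43% of all CHD5 peaks there. Elsewhere 5 of 332 did, or 1.51% (0.645% to 3.48%), against 1.60%. The segments, where CHD5 peaks overlapped more often, held 62.2% of broad peaks and 18.4% of all autosomal peaks. When members were instead taken as the widest 2.72% inside and outside the segments separately, 15 of 878 overlapped, or 1.71%. These shares differ by less than their counting error within each setting, and with 1 library no further test was possible.

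A wider peak has more length with which to meet a mark. Counted at the middle of the peak, 13 broad peaks, or 1.48% (0.867% to 2.52%), fell in an H3K27me3 domain (rows up to 3 kb apart joined), against 1.60% of narrower peaks. Of the bases under broad peaks 1.20% were in H3K27me3, against 0.812% under narrower ones. Split by setting this was 1.60% against 1.81% inside the segments and 0.492% against 0.515% elsewhere. Among the 59 members of 10 kb or more, 0 overlapped (upper Wilson bound 6.11%).

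The 30 overlapping members touched 101 H3K27me3 rows and shared 70.5 kb with them. The shared part had a median of 1415 bp, or 21.1% of the peak, and ranged from 280 to 7218 bp. In 17 members less than 25% of the peak was inside, and in 9 at least 50% was. Chromosome 7 held 12 of the 30, chromosome 1 above 120 Mb 8, chromosome 2 below 49 Mb 3 and chromosome 17 above 45 Mb 2.

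Overlapping members scored lower than the others, with medians of 260 and 610. Inside the segments the medians were 243 and 489, and elsewhere, for the 5 overlapping members there, 754 against 863. Among the 46 low-scoring members 5 overlapped, or 10.9%, and among the other 832 it was 25, or 3.00%. Of those 46, 41 were in the segments, where 4.43% of all CHD5 peaks overlapped against 1.60% elsewhere. The overlap of low-scoring autosomal peaks at large was not computed, so this difference is not shown to be particular to broad peaks. Of the 10 with the most shared bases, 8 scored under 240. The peak with the most, 7218 bp or 94.6% of its length, lay at chr3:197825364-197832993 and scored 72.7. The peak with the largest covered share, 97.6%, lay at chr1:144323227-144330617 and scored 62.8. On chromosome 7 the peak at chr7:149740867-149747911 had 79.5% inside H3K27me3 and scored 68.4, and the one at chr7:65016361-65022715 had 74.0% and scored 144.

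Members with both a high score and a long overlap were rare. One lay at chr2:1218152-1227555, with a score of 1822 and 6067 of its 9404 bp in H3K27me3, spread over 14 rows. It is 299 kb from the member of 12958 bp that carries the top score, which itself lay 73.5 kb from the mark. Another, at chr7:13503738-13509248, scored 703 and had 2911 bp inside, or 52.8%. Outside the segments, the 5 overlapping members were those on chromosome 3 above, chr2:91843921-91849805 (778 bp), chr11:14993073-14999911 (513 bp), chr12:132063082-132068538 (455 bp) and chr17:8020562-8029820 (1509 bp). The last 3 scored 754, 1422 and 1342 and had 7.50%, 8.34% and 16.3% of their length inside, so they met the mark at a small part of the peak.

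Beyond direct overlap, broad peaks lay somewhat further from H3K27me3 than narrower ones. The median distance to the nearest row was 218 kb (95% interval of the median from order statistics 200 to 237 kb, quartiles 84.3 and 417 kb), against 166 kb (164 to 169 kb) for narrower autosomal peaks. The direction was the same in both settings. Inside the segments the medians were 218 and 173 kb, with intervals of 191 to 249 kb and 164 to 181 kb. Elsewhere they were 218 and 165 kb, with intervals of 196 to 251 kb and 162 to 168 kb. In neither setting did the intervals of broad and narrower peaks overlap. These intervals treat peaks as independent, although peaks close together can share the same nearest row, so they can be too narrow. Outside the segments the distance rose with width up to 3 to 4 kb, so the rise began below the limit, and it was uneven beyond that. The median was 149.5 kb under 1 kb, 162.5 kb at 1 to 2 kb and 174.5 kb at 2 to 3 kb. It was 200.5 kb at 3 to 4 kb and 182 kb at 4 to 5 kb. Above the limit it was 226 kb at 5 to 6 kb, 216.5 kb at 6 to 8 kb and 184.5 kb (87.0 to 298 kb) for the 45 peaks of 8 kb or more. In that widest class 13.3% (6.26% to 26.2%) lay within 10 kb of the mark and 35.6% (23.2% to 50.2%) within 100 kb, so these peaks were not shown to be further away. The 13.3% rests on 6 peaks. They include chr1:21904-31480, chr9:21848-31166 and chr19:63512-72591, near chromosome starts, and chr2:114339242-114349116. These scored 137 to 274, where the class median was 956. The others, on chromosomes 8 and 17, scored 586 and 1342. Whether the low-scoring rows are independent loci was not tested. Inside the segments the 103 peaks of 8 kb or more had a median of 276 kb (204 to 348.5 kb).

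The separation inside the segments was seen only with the 4 of them pooled. In each one the median was larger for broad than for narrower peaks, but the intervals overlapped. Broad and narrower peaks had medians of 251 and 180 kb on chromosome 1 and of 249 and 193 kb on chromosome 2. On chromosome 17 they had 200 and 131 kb. Chromosome 7, with 227 members, showed the smallest gap, 191 kb (165 to 235 kb) against 178 kb (163 to 187 kb).

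Within 10 kb of an H3K27me3 row, overlaps included, lay 56 members, or 6.38% (4.94% to 8.19%), against 7.48% of autosomal peaks and 7.51% of narrower ones. Elsewhere the share was 5.72% (3.69% to 8.77%), against 7.13% of all peaks and 7.15% of narrower ones, a difference within the counting error. Inside the segments it was 6.78% (4.96% to 9.20%), against 9.03% of all peaks and 9.26% of narrower ones, so the narrower peaks lay just above the interval. Measured there from the middle of the peak, the share was 6.04% (4.34% to 8.37%) against 8.83% of narrower peaks. Within 100 kb the difference was larger than the counting error: 246 members, or 28.0% (25.1% to 31.1%), against 34.9% of narrower peaks (34.4% to 35.4%). The lower share was not particular to the members. Peaks of 3 to 4 kb had 29.0% and those of 4 to 5 kb 29.8%, both within the members' interval. Of the 632 members beyond 100 kb, 172 were over 500 kb away and 29 over 1000 kb. These are 19.6% and 3.30% of all members, where all autosomal peaks had 14.3% and 2.25%. Among members within 100 kb that did not overlap, the mark lay on 1 side only for 182 and on both sides for 34. The most remote member was 2113 kb from any row.

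**Figure D5:**
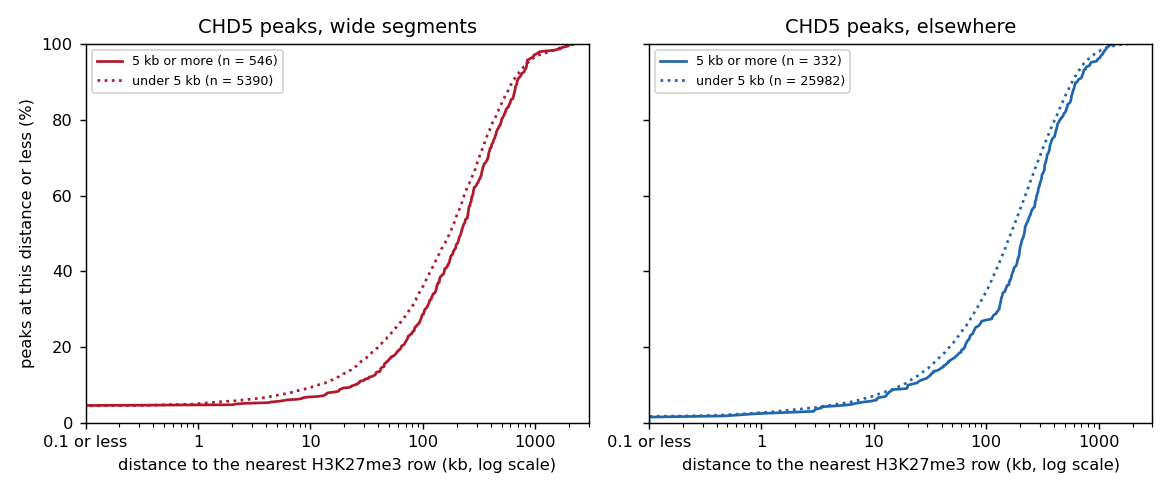
Cumulative percentage of CHD5 peaks by distance from the peak's edge to the nearest H3K27me3 row (kb, log scale; overlapping peaks are drawn at the left edge), in the wide segments (left) and elsewhere (right), for peaks of 5 kb or more (solid) and under 5 kb (dotted). In both panels the solid line runs below the dotted one around 100 kb, and the medians are 218 against 173 kb on the left and 218 against 165 kb on the right.

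Broad peaks were not gathered at the ends of chromosomes. In the first 5 Mb lay 26 of them, or 2.96%, against 3.71% of all autosomal CHD5 peaks, and within 5 Mb of the last listed row lay 42, or 4.78%, against 5.21%.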

How the data were processed

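The authors deposited 1 MACS peak list for CHD5 and 1 for H3K27me3, per the file headers, on hg19, per the submitters' processing notes. Each row has a position and a score that the authors' peak caller gave it. The smallest score is 50 in both lists and its scale is not stated. Not given in the sources used here are the aligner, the MACS version, its threshold and its background library. They bear on width, since a caller ends a peak where signal falls to its background. The control pull-down and the input were not analysed here.

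Width was end minus start, positions are counted from 1, and distances run between edges. H3K27me3 rows up to 3 kb apart were joined into domains. The regions named are the 15 widest members, the 10 widest outside the segments, the 10 with the highest score, the most bases in H3K27me3 or the most neighbours, the 5 largest groups, the 5 fullest 1-Mb windows and the 5 peaks on each side of the limit. The lowest scores, further groups and windows and the 5 overlapping members outside the segments were named after their values were seen. So were the peaks of 8 kb or more within 10 kb of H3K27me3 outside the segments. Members, segments and rules were chosen with earlier results of these data known. Interval routines were tested on simulated rows (0 mismatches in 40 simulations), and distances were checked with bedtools 2.31.1 (0 of 32543 peaks differed). Gene names and sequences are left out because the reference tables at hand belong to another build. Python 3.11.15, numpy 2.4.6, pandas 2.3.3 and scipy 1.17.1 were used. Alternatives covered the width and score limits, the gap, the overlap and the rows included.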

Additional observations from a re-analysis of the deposited data

How the results depend on the processing

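Each group has 1 library, so no replicate could be left out. No paired analysis was possible because the result comes from no test and each group has a single sample. Of 52 alternatives, 21 stayed within 1.5 times the count or within the interval of the value reported and 31 did not; where no cause is named, the cause was not tested. Selections by equal share, the run without chromosome 7 and the segment share of joined peaks were added after the data were seen.

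The number of broad peaks follows from the limit: 1906 at 4 kb, 446 at 6 kb, 148 at 8 kb, 59 at 10 kb, and 1566 with peaks up to 1000 bp apart joined. Without chromosome 7 it was 651. The share in the wide segments was 55.4%, 66.4%, 69.6% and 81.4% at those 4 limits, 46.6% after joining and 28.0% with the same share of the widest peaks taken within each chromosome. That selection evens out chromosomes by construction.

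The share with a neighbour was 50.6%, 78.9% and 91.0% for gaps of 5, 20 and 50 kb, 51.5% between midpoints, 17.5% for broad neighbours, 70.5% outside the segments, and 62.0%, 75.7% and 74.6% at limits of 4, 8 and 10 kb. For all autosomal peaks it was 36.0% at 5 kb, 82.3% at 50 kb, 43.6% between midpoints and 3.03% for broad neighbours. Overlap with H3K27me3 was 1.03% when 50% of the peak had to be inside, 1.48% at the midpoint, 2.03% at 8 kb, 0% at 10 kb, 1.51% outside the segments, and 1.71% and 1.82% for equal shares inside and outside the segments and within each chromosome. For all autosomal peaks it was 0.692% with 50% inside, 1.60% at the midpoint and 2.12% for any overlap, so the members' share was the higher one with 50% inside and the lower one at the midpoint and for equal shares. With only H3K27me3 rows scoring at or above the median, 2.85% of members and 1.55% of all autosomal peaks overlapped. This contrast and the one with 50% inside pool the segments, which held 62.2% of members and 18.4% of all autosomal peaks, with other sequence. Neither was computed by setting, so neither is shown to be an excess particular to the members. Within 10 kb of H3K27me3 lay 4.10% of members with rows scoring at or above the median and 2.62% with rows in domains of at least 5 kb. The median distance was then 497 and 1036 kb, since fewer rows remained. Shares and distances of all autosomal peaks under these 2 settings are not given here, so the changes are not results about the members.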
